A study of Homo sapiens with 9 samples.

Results

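The expression of 10 genes of mitophagy and autophagy was followed in undifferentiated Caco-2 (uCaco-2) cells, a human colon adenocarcinoma line, under 2 chemical activators of hypoxia-inducible factor (HIF). The genes were *BNIP3*, *BNIP3L*, *FUNDC1*, *PINK1*, *ULK1*, *SQSTM1*, *MAP1LC3B*, *GABARAPL1*, *WIPI1* and *NBR1*. They were taken by symbol from the 60591 symbols of the count table, all 10 were found, and all 10 passed the filter on low counts that left 15944 genes for testing. Cells received 300 μM CoCl2 for 24 h, 5 μM of the oxyquinoline derivative (OD) 4896-3212 for 24 h, or fresh medium as control. Every medium held 0.5% DMSO. There were 3 biological replicates of each condition, all from this single cell line, and levels are of poly(A)-selected mRNA, not of protein or of autophagic flux.

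Autophagy encloses cargo in a double membrane, the autophagosome, and delivers it to lysosomes. The kinase ULK1 starts the process, WIPI proteins bind the lipid that marks the growing membrane, and the ubiquitin-like ATG8 proteins, among them the products of *MAP1LC3B* and *GABARAPL1*, are anchored in it. Receptors link cargo to the ATG8 proteins: p62 (*SQSTM1*) and NBR1 bind ubiquitinated cargo, while BNIP3, BNIP3L (NIX) and FUNDC1 sit in the outer mitochondrial membrane and mark mitochondria for removal. PINK1 is a kinase that builds up on damaged mitochondria and phosphorylates ubiquitin there. *BNIP3* and *BNIP3L* are well-known HIF target genes, and mitophagy lowers the number of mitochondria in cells short of oxygen.

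Total counts were 15998136 to 24209427 per library. All 7 markers of intestinal epithelium were detected, with summed levels (CPM) of 10806 to 11334 in the control libraries, 12903 to 13838 in those with CoCl2 and 10137 to 10692 in those with OD. Within this list *VIL1*, which encodes the microvillus protein villin, fell with CoCl2 from 612.7 ± 18.3 to 112 ± 6.28 CPM (SD, n = 3, log2 fold change -2.45, adjusted p = 1.24e-51), and the part of this in the results was not tested. Of 8 markers of immune, endothelial and stromal cells, 2 passed the count filter, *COL1A1* and *PECAM1*. The sum over all 8 ranged from 15.8 to 19.4 CPM in control libraries, from 10.9 to 12.7 under CoCl2 and from 24.1 to 25.2 under OD. Most of it was *COL1A1*, with means of 14.4 CPM in control libraries, 10.2 under CoCl2 and 21.7 under OD. The part of this sum in the results was not tested. The leukocyte marker *PTPRC* had at most 3 counts in any library. CPM are counts per 1000000 counts of a library, scaled with the TMM factors of edgeR, which allow for the different RNA composition of the libraries. The factors lay between 0.770 and 0.795 under CoCl2, 1.11 and 1.12 in control libraries, and 1.14 and 1.15 under OD. Without them the median over all genes of the log2 fold change under CoCl2 moved from -0.049 to -0.55, so the changes with CoCl2 are stated relative to the bulk of genes, and total RNA per cell was not measured. A change in RNA per cell and a change in the share of cells that express a gene cannot be told apart in these libraries.

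Both treatments raised most of the 10 genes, but to very different degrees. With CoCl2, 8 of 10 rose (*BNIP3*, *BNIP3L*, *PINK1*, *ULK1*, *SQSTM1*, *MAP1LC3B*, *GABARAPL1* and *NBR1*) and none fell. A call required an adjusted p below 0.05 in the quasi-likelihood test of edgeR (Benjamini-Hochberg adjustment) together with a change of over 1 on the log2 scale. By this rule 43.2% of all tested genes were called with CoCl2, 19.9% higher and 23.4% lower, so that 46.0% of the calls were higher, or 23.9% with library size alone. With OD, 6 of 10 rose (*BNIP3*, *BNIP3L*, *PINK1*, *ULK1*, *GABARAPL1* and *WIPI1*) and none fell, against 13.3% of all genes called, 9.09% higher and 4.16% lower. The median log2 fold change of the 10 genes was 2.88 with CoCl2 and 1.24 with OD, where that of all tested genes was -0.049 and -0.010. At the adjusted p alone, 9 of 10 differed from control with CoCl2 and 10 of 10 with OD, where 83.2% and 65.6% of all genes did. The libraries with CoCl2 lay wholly above the control libraries for 8 of the 10 and wholly under them for 1, against 40.5% and 42.9% of all genes (83.4% together). With OD this was so for 9 and 1, against 33.7% and 34.3% of all genes (68.0% together). The 10 genes were chosen with earlier results of these data known, so these counts describe the genes and are not a test of the group. Both comparisons use the same control libraries. For a single gene, 3 libraries against 3 cannot give an exact two-sided permutation p below 0.1, and 29 of the 30 comparisons of these genes reached that value. The other was *WIPI1* with CoCl2 (exact p = 0.8).

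**Figure D1:**
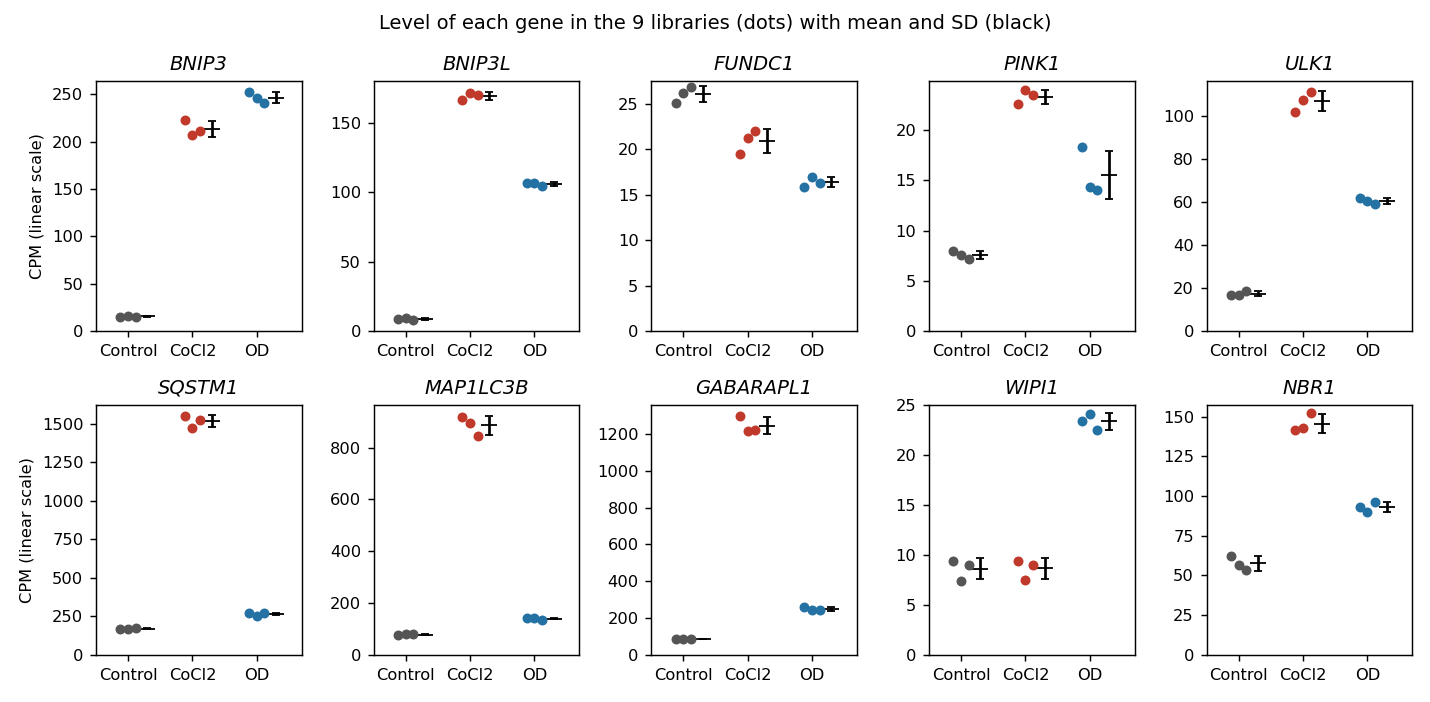
Levels of the 10 genes in CPM on linear axes that start at 0. Each dot is a library, in the order of replicates 1 to 3, and the black marks are the mean and SD (n = 3). *BNIP3* is high with both treatments, *SQSTM1*, *MAP1LC3B* and *GABARAPL1* are far higher with CoCl2 than with OD, and *WIPI1* is raised with OD alone among these libraries.

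The mitochondrial receptors *BNIP3* and *BNIP3L* responded most to OD and were among the most responsive with CoCl2. *BNIP3*, a minus-strand gene of chromosome 10 (131967684 to 131981967, GRCh38), had 15.5, 16.0 and 15.5 CPM in the control libraries, 223, 207 and 211 with CoCl2, and 252, 246 and 241 with OD. The 3 groups did not overlap, and the OD libraries were the highest. The rise was 13.6-fold with CoCl2 (log2 fold change 3.77, standard error 0.055, adjusted p = 1.79e-56) and 15.7-fold with OD (3.98, standard error 0.055, adjusted p = 7.47e-57). Only 26 of the 15944 tested genes had a larger log2 fold change with OD than *BNIP3*, whereas 211 did with CoCl2. Between the treatments the log2 difference of CoCl2 from OD was -0.21 (adjusted p = 9.77e-06), or -0.75 with library size alone, both short of the threshold on fold change. A processed pseudogene with sequence close to *BNIP3*, *BNIP3P1*, had 3 to 11 counts in untreated cells, 28 to 36 with CoCl2 and 71 to 94 with OD, against 276 to 326, 2670 to 4031 and 4521 to 5552 for *BNIP3*. Adding its counts to those of *BNIP3* left the log2 fold changes at 3.75 with CoCl2 and 3.97 with OD.

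The sequence before the start of *BNIP3* is shown because HIF dimers bind the short motif ACGTG or GCGTG and this gene rose with both HIF activators. RefSeq promoter windows on GRCh38.p14 were found for 8 of the 10 genes, in 11 windows, and not for *BNIP3L* and *PINK1*. The 250 bases before the RefSeq start of *BNIP3*, chr10:131981924-131982173 on the minus strand, read 5′ to 3′ with ACGTG and GCGTG on either strand in capitals:
BNIP3: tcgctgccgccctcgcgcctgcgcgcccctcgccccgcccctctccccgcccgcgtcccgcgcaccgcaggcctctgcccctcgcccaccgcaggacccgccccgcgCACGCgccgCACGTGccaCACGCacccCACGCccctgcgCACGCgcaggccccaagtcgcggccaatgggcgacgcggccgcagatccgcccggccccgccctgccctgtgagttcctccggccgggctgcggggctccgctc
They hold GCGTG at 4 places, with first bases 143, 125, 116 and 104 bases before the start. A palindrome CACGTG, 134 bases before the start, holds ACGTG on both strands. Of the 35116 RefSeq windows of this length, 18.5% hold ACGTG, 32.2% hold GCGTG and 6.345% hold CACGTG on either strand. This window has 81.6% G or C, and a match is a run of letters, not a measured binding site. Among the other genes, *ULK1* had GCGTG at 1 place, *NBR1* at 1 place in each of its 2 windows and *MAP1LC3B* at 4, while the windows of *FUNDC1*, *GABARAPL1*, *SQSTM1* and *WIPI1* had neither.

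*BNIP3L*, the paralog of *BNIP3*, lies on the plus strand of chromosome 8 from 26383054 to 26505636. Its level was 8.82, 9.85 and 8.02 CPM in the control libraries, 166, 172 and 170 with CoCl2, and 107, 107 and 105 with OD. Here the order of the treatments was the opposite of that of *BNIP3*, with every CoCl2 library above every OD library. *BNIP3L* had the largest change of the 10 genes with CoCl2, 18.9-fold (log2 fold change 4.24, standard error 0.064, adjusted p = 5.55e-56). With OD it rose 11.9-fold (3.57, standard error 0.065, adjusted p = 2.96e-50), and the treatments differed by 0.67 on the log2 scale (adjusted p = 4.29e-21, under the fold threshold), or by 0.13 with library size alone (adjusted p = 0.00977). Per kilobase of exon, the level of *BNIP3* was 1.81 ± 0.158 times that of *BNIP3L* in control cells (SD, n = 3), 1.29 ± 0.0717 times with CoCl2 and 2.38 ± 0.0376 times with OD. This ratio, taken within each library, does not depend on the scaling between libraries, and its ranges in the 3 groups did not overlap.

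*FUNDC1* encodes the outer membrane receptor that is known for mitophagy in hypoxia, and its mRNA was lower, not higher, with both treatments. It is a minus-strand gene of chromosome X (44523639 to 44542859). The control libraries had 25.1, 26.2 and 26.9 CPM, those with CoCl2 19.5, 21.2 and 22.0, and those with OD 15.9, 17.0 and 16.3. All 6 treated libraries were under all 3 control libraries. On the log2 scale CoCl2 libraries differed from control by -0.32 (standard error 0.073, adjusted p = 8.3e-05) and OD libraries by -0.67 (standard error 0.072, adjusted p = 2.16e-12), both short of the fold threshold. The difference between the treatments, 0.35 with TMM factors (adjusted p = 3.84e-05), turned to -0.19 when library size was the sole scaling.

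*PINK1*, on the plus strand of chromosome 1 from 20633458 to 20651511, was expressed at a low level. It had 7.96, 7.60 and 7.12 CPM in untreated cells, 22.5, 23.9 and 23.4 with CoCl2, and 18.3, 14.3 and 14.0 with OD. Replicate 1 with OD lay above the other OD libraries but under all CoCl2 libraries. The rise was 3.07-fold with CoCl2 (log2 fold change 1.62, standard error 0.095, adjusted p = 4.03e-24) and 2.06-fold with OD (1.04, standard error 0.098, adjusted p = 1.27e-14). The call with OD rested on the threshold: without OD replicate 1 the log2 fold change was 0.90, and without control replicate 3 it was 0.998. The antisense gene *PINK1-AS* shares exons with *PINK1*, 41.7% of whose exonic bases lie in another gene on either strand, and the strand setting of the counting is not given in the sources used here. *PINK1-AS* had 2.73 ± 0.172 CPM in untreated cells, 1.93 ± 0.200 with CoCl2 and 2.98 ± 0.431 with OD (SD, n = 3).

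The ATG8 genes separated the treatments more than the mitochondrial receptors did. *GABARAPL1*, on the plus strand of chromosome 12 from 10212458 to 10223128, had 87.4, 86.0 and 88.0 CPM in the control libraries, 1298, 1216 and 1221 with CoCl2, and 262, 246 and 244 with OD. The 3 groups were far apart. It rose 14.3-fold with CoCl2 (log2 fold change 3.84, standard error 0.045, adjusted p = 1.41e-61) and 2.88-fold with OD (1.53, standard error 0.044, adjusted p = 2.67e-39), and the level with CoCl2 was 4.96-fold that with OD (2.31 on the log2 scale, adjusted p = 1.15e-51). *MAP1LC3B*, which encodes the LC3B protein widely used to mark autophagosomes, lies on the plus strand of chromosome 16 from 87383953 to 87404779. Its level was 76.3, 79.9 and 80.0 CPM in untreated cells, 917, 897 and 845 with CoCl2, and 142, 143 and 136 with OD. This was an 11.3-fold rise with CoCl2 (log2 fold change 3.49, standard error 0.045, adjusted p = 1.97e-59), whereas the log2 fold change with OD was 0.83 (standard error 0.045, adjusted p = 3.55e-25), under the fold threshold. CoCl2 libraries exceeded OD libraries by 2.66 on the log2 scale (adjusted p = 2.9e-54). Adding the counts of the near-identical *MAP1LC3B2* left the log2 fold changes of *MAP1LC3B* at 3.49 and 0.83.

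Per kilobase of exon, the 7 genes of the ATG8 family summed to 54.0 ± 0.725 RPKM (CPM per kilobase) in untreated cells, 521 ± 17.8 with CoCl2 and 108 ± 2.52 with OD (SD, n = 3). *GABARAPL1* made up 39.8% ± 0.764 of this sum in untreated cells, 58.9% ± 0.497 with CoCl2 and 57.1% ± 0.864 with OD. The share of *GABARAPL2* was 30.1% ± 1.67 in untreated cells, 6.58% ± 0.346 with CoCl2 and 16.4% ± 0.858 with OD. *MAP1LC3B* held 29.0% ± 1.14, 33.8% ± 0.819 and 25.7% ± 0.663 in the same order. In these counts *GABARAPL1*, *GABARAPL2* and *MAP1LC3B* thus held most of the sum in control cells, and *GABARAPL1* held most of it in treated cells. *MAP1LC3A* and *MAP1LC3C* had at most 4 counts in any library. The level of *GABARAP* is uncertain: it had only 4 to 8 counts in control libraries, and other annotated genes cover 48.2% of its exonic bases. On its own strand the covered part is 35.4%. If reads of *GABARAP* went uncounted, the sum is too low and the shares of the other genes are too high, which was not tested.

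**Figure D2:**
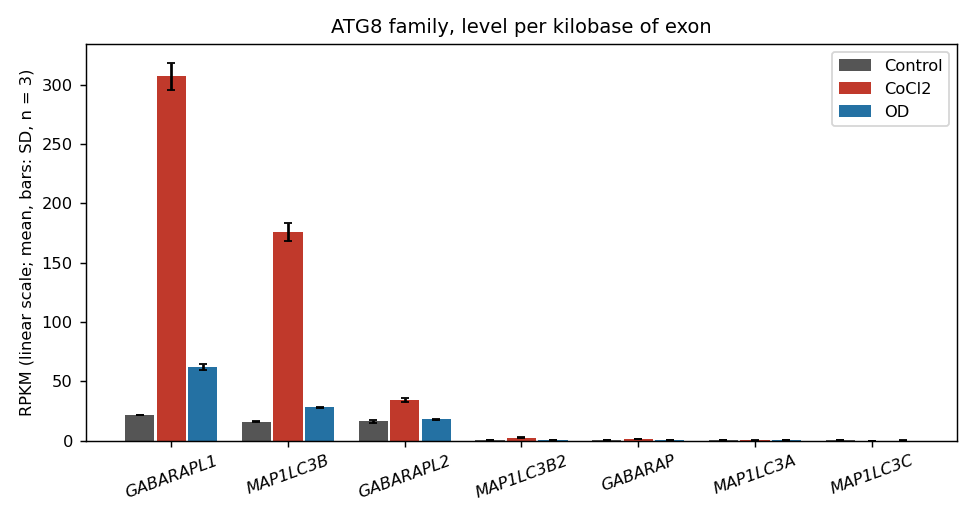
Level of the ATG8 family genes in RPKM on a linear axis from 0, as the mean of 3 libraries with the SD as error bars. *GABARAPL1* and *MAP1LC3B* tower over the other members with CoCl2, at 307 and 176 RPKM. The level of *GABARAP* is uncertain.

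Of the ubiquitin-binding receptors, *SQSTM1* was called higher with CoCl2 than with OD and *NBR1* was not. *SQSTM1*, on the plus strand of chromosome 5 from 179806398 to 179838078, had 171, 165 and 176 CPM in untreated cells, 1550, 1474 and 1526 with CoCl2, and 269, 255 and 272 with OD. It rose 8.89-fold with CoCl2 (log2 fold change 3.15, standard error 0.043, adjusted p = 2.53e-58). With OD its log2 fold change was 0.64 (standard error 0.042, adjusted p = 2.41e-21), so the OD libraries stood above all control libraries without reaching the fold threshold. The level with CoCl2 was 5.71-fold that with OD (2.51 on the log2 scale, adjusted p = 1.37e-53). Genes on the other strand cover 22.4% of the exonic bases of *SQSTM1*, and the part of this overlap in the result was not tested. *NBR1*, on the plus strand of chromosome 17 from 43170481 to 43211689, encodes a larger receptor with a similar domain plan and moved less. It had 62.5, 56.7 and 53.5 CPM in untreated cells, 141, 143 and 152 with CoCl2, and 92.9, 90.1 and 96.2 with OD. Its 2.53-fold rise with CoCl2 (log2 fold change 1.34, standard error 0.051, adjusted p = 1.08e-33) fell under the fold threshold at 0.83 when library size was the only scaling. With OD its log2 fold change was 0.69 (standard error 0.052, adjusted p = 1.19e-18). Between the treatments *NBR1* differed by 0.65 on the log2 scale (adjusted p = 4.2e-19), under the fold threshold.

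Windows before a RefSeq start of *MAP1LC3B*, *GABARAPL1* and *SQSTM1* are shown as those of the 3 genes that were called higher with CoCl2 than with OD. All 3 windows lie inside the gene spans given above, so these RefSeq starts are internal to the spans. They cover chr16:87392086-87392335, chr12:10212627-10212876 and chr5:179820655-179820904 of GRCh38.p14, all on the plus strand, and capitals again mark ACGTG and GCGTG on either strand:
MAP1LC3B: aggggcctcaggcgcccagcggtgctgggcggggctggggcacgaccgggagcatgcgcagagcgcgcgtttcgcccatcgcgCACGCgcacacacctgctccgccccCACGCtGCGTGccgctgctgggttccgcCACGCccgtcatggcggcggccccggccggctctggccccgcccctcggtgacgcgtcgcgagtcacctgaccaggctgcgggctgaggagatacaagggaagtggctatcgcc
GABARAPL1: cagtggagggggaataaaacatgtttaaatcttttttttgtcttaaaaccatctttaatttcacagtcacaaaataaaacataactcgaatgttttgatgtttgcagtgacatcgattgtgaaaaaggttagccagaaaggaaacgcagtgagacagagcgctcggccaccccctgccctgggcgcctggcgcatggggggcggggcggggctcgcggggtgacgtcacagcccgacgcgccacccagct
SQSTM1: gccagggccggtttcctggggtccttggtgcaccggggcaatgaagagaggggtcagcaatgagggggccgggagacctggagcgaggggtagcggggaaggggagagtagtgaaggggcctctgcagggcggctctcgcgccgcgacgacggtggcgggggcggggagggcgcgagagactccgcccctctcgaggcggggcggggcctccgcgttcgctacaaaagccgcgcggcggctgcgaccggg
For *SQSTM1* RefSeq gives 3 starts, and the window shown is the last of them, which is the only 1 of the 3 with any of the motifs searched. For the antioxidant response element that NRF2 binds, a loose form, TGANNNNGC, in which only TGA and GC are fixed, was searched on both strands. A match to it need not be a full element. This loose form occurs in the *SQSTM1* window shown at 190 and 139 bases before the start, and in the *MAP1LC3B* window at 46 bases before the start. It occurs in 35.2% of all windows, and also in that of *WIPI1*. The heat shock element core GAANNTTC and the ATF4 motif core TGATGNAA occur in 5.78% and 3.14% of all windows and in none of the 11 windows of these genes. In the *GABARAPL1* window, where 51.6% of the bases are G or C, no motif of the list was found.

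The genes of the initiating machinery moved apart from each other. *ULK1*, on the plus strand of chromosome 12 from 131894622 to 131923150, had 16.7, 16.9 and 18.9 CPM in untreated cells, 102, 107 and 111 with CoCl2, and 62.1, 60.7 and 59.3 with OD. Its level rose 6.12-fold with CoCl2 (log2 fold change 2.61, standard error 0.061, adjusted p = 1.8e-45) and 3.47-fold with OD (1.80, standard error 0.062, adjusted p = 6.17e-35). *WIPI1*, a minus-strand gene of chromosome 17 (68420948 to 68457513), had 9.42, 7.45 and 9.03 CPM in untreated cells, 9.46, 7.51 and 9.02 with CoCl2, and 23.5, 24.2 and 22.5 with OD. The control and CoCl2 libraries overlapped fully, and the OD libraries stood well above both. Genes on the other strand cover 28.1% of the exonic bases of *WIPI1*. The strand setting of the counting is not given, and the part of this overlap in the result was not tested. The rise with OD was 2.72-fold (log2 fold change 1.45, standard error 0.088, adjusted p = 9.16e-23). With CoCl2 the log2 fold change was 0.024, with a 95% interval from -0.19 to 0.24 (adjusted p = 0.845). With library size as the only scaling it was -0.48 (adjusted p = 8.23e-05), close to the median of all genes under that scaling. *WIPI1* was the only gene of the 10 called lower with CoCl2 than with OD (log2 difference -1.42, adjusted p = 2.32e-22).

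**Figure D3:**
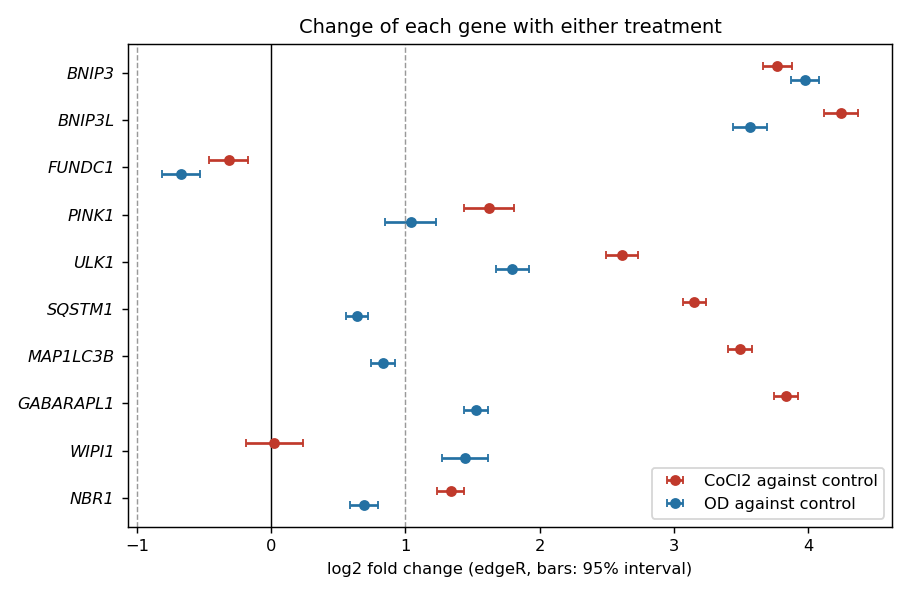
Log2 fold changes of the 10 genes with CoCl2 (red) and OD (blue) against control from the edgeR fit, with 95% intervals of 1.96 standard errors. Dashed lines mark the threshold of 1 in size. The 2 treatments lie close for *BNIP3* and far apart for *SQSTM1*, *MAP1LC3B*, *GABARAPL1* and *WIPI1*.

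The direct comparison of the treatments gave 3 genes called higher with CoCl2 (*SQSTM1*, *MAP1LC3B* and *GABARAPL1*) and 1 called lower (*WIPI1*), where 41.3% of all tested genes were called, 17.5% higher and 23.8% lower. Without the fold threshold all 10 differed, 8 higher with CoCl2 and *BNIP3* and *WIPI1* lower, against 83.5% of all genes in either direction. The libraries of the 2 treatments did not overlap for any of the 10 genes, with CoCl2 above for 8 and below for 2. Over all tested genes CoCl2 was wholly above for 40.3% and wholly below for 43.5% (83.8% together). The calls of these 4 genes were also made with library size alone, with log2 differences of 1.97, 2.11 and 1.77 for *SQSTM1*, *MAP1LC3B* and *GABARAPL1* and -1.97 for *WIPI1*. Under that scaling the differences of *PINK1* and *NBR1* shrank to 0.035 (adjusted p = 0.703) and 0.10 (adjusted p = 0.0528), so whether these genes responded more to CoCl2 depended on the scaling.

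**Figure D4:**
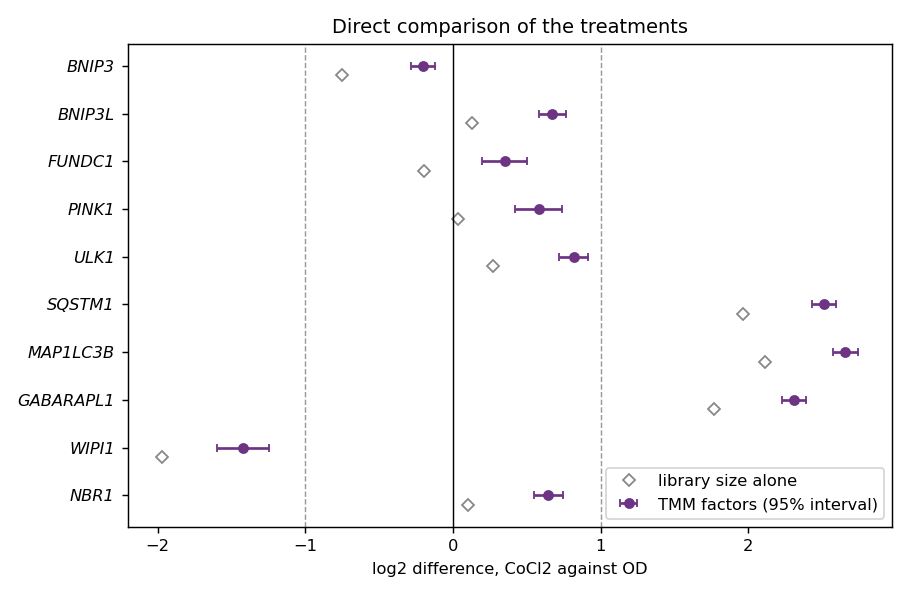
Log2 difference of CoCl2 from OD for the 10 genes. Filled circles are the edgeR values with TMM factors and 95% intervals, open diamonds the values with library size alone, and dashed lines the threshold of 1 in size. *SQSTM1*, *MAP1LC3B*, *GABARAPL1* and *WIPI1* lie beyond the threshold with both scalings, and *FUNDC1* changes sign.

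The order of the genes by level per kilobase differed between the conditions. In control cells it was *SQSTM1* (22.6 ± 0.714 RPKM, SD, n = 3), *GABARAPL1* (21.5 ± 0.249), *FUNDC1* (20.7 ± 0.702), *MAP1LC3B* (15.6 ± 0.417), *NBR1* (6.85 ± 0.546), *BNIP3* (3.86 ± 0.0704), *WIPI1* (2.54 ± 0.306), *ULK1* (2.30 ± 0.158), *BNIP3L* (2.14 ± 0.221) and *PINK1* (1.56 ± 0.0870). The ranges of *GABARAPL1* and *FUNDC1*, of *WIPI1* and *ULK1*, and of *ULK1* and *BNIP3L* overlapped over the control libraries. Both genes of a pair were measured in the same libraries, and their difference within each library was not tested. With CoCl2 the order began with *GABARAPL1* (307 ± 11.4 RPKM), *SQSTM1* (201 ± 5.12), *MAP1LC3B* (176 ± 7.35), *BNIP3* (52.8 ± 2.08) and *BNIP3L* (40.8 ± 0.637) and ended with *WIPI1* (2.54 ± 0.301). With OD *GABARAPL1* (61.9 ± 2.38 RPKM) and *BNIP3* (60.8 ± 1.40) led with overlapping libraries, ahead of *SQSTM1* (35.3 ± 1.19), *MAP1LC3B* (27.9 ± 0.710) and *BNIP3L* (25.6 ± 0.295). *BNIP3*, in place 6 in untreated cells, thus stood beside the most abundant of these transcripts with OD. These lengths are the union of all annotated exons, and with the longest transcript instead, *SQSTM1* led in all 3 conditions.

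The genes most like 3 of these in their profile were sought by the distance between log2 CPM over the 9 libraries, each centred on its own mean, among genes of at least 10 CPM. For *BNIP3* the nearest were *DDIT4* (distance 0.603), *NDRG1* (1.06) and *BNIP3L* (1.10), of 9029 compared. *DDIT4*, a stress-induced inhibitor of mTORC1 signaling, had log2 fold changes of 4.16 with CoCl2 and 4.04 with OD. For *BNIP3L* they were *DDIT4* (0.734), *NDRG1* (0.779) and *YPEL2* (0.929). For *GABARAPL1* they were *HBP1* (0.397), *MAFF* (0.421) and *GCNT3* (0.455), which had log2 fold changes of 4.11, 4.08 and 4.20 with CoCl2 and 1.54, 1.70 and 1.61 with OD.

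Of 78 other genes of the autophagy pathway, in 9 lists by role, 75 passed the count filter. With CoCl2, 34 of the 75 rose and 4 fell, around a median log2 fold change of 0.91, where 19.9% and 23.4% of all genes rose and fell. With library size as the only scaling these were 13 and 10. With OD 4 of the 75 rose and 1 fell, with a median of 0.23, where 9.09% and 4.16% of all genes rose and fell. Thus 6.67% of the pathway genes were called with OD, below the 13.3% of all genes. Between the treatments 22 were higher and 5 lower with CoCl2, where 17.5% and 23.8% of all genes were. With library size alone these were 7 and 12, and 18.3% of the calls over all genes were then higher.

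With CoCl2 7 of the 9 genes in the list of WIPI, ATG2 and ATG9 proteins rose, against 19.9% of all genes. The log2 fold changes of these 7 ran from 1.21 to 2.50. Calls of single lists with library size alone are not given here. Over all 9 lists the higher calls then fell from 34 to 13. The list of WIPI, ATG2 and ATG9 proteins also holds *VMP1* (log2 fold change 0.83, not called) and *TMEM41B* (1.39, called), which encode lipid scramblases. All 3 tested ATG8 genes beside *MAP1LC3B* and *GABARAPL1* were called higher with CoCl2. For *GABARAPL2* the log2 fold change of 1.08 was close to the fold threshold, and its interval, from 0.97 to 1.18, reached below it. Its value with library size alone is not given here. Reads of *MAP1LC3B2* (8 to 13 counts in control libraries and 59 to 93 with CoCl2) cannot be told apart with certainty from those of the near-identical *MAP1LC3B* (1419 to 1630 and 11592 to 16121 counts), and *GABARAP* has few counts and shared exons, so both rises are uncertain. The largest fitted rises were those of *MAP1LC3B2* (log2 fold change 3.15, adjusted p = 1.41e-19), *RB1CC1* (2.71, adjusted p = 5.43e-37), which encodes the FIP200 scaffold of the ULK1 complex, *GABARAP* (2.63, adjusted p = 2.58e-11), the cargo receptor *TAX1BP1* (2.60, adjusted p = 4.17e-54) and *ATG9B* (2.50, adjusted p = 6.89e-18). *ATG14*, the subunit that directs the lipid kinase complex to autophagy, had a log2 difference of 1.81 between CoCl2 and OD (adjusted p = 6.21e-39). The genes that fell with CoCl2 were *NIPSNAP1* (-2.79, adjusted p = 5.63e-41) and *NIPSNAP2* (-2.17, adjusted p = 5.35e-39), whose mitochondrial products can recruit autophagy receptors, *ATG16L2* (-2.42, adjusted p = 1.23e-23) and *ATG10* (-2.36, adjusted p = 2.82e-18), an enzyme of the conjugation of ATG12 to ATG5.

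The genes of the pathway that rose with OD were *ATG9B* (log2 fold change 1.91, adjusted p = 3.64e-12), the receptors *CALCOCO1* (1.67, adjusted p = 8.62e-29) and *OPTN* (1.15, adjusted p = 1.35e-32), and *RETREG1* (1.63, adjusted p = 1.37e-26), a receptor for the endoplasmic reticulum. *NIPSNAP1* fell with OD too (-1.49, adjusted p = 3.68e-30). Of the 13 tested mitophagy genes beside the 10 followed here, 3 rose and 2 fell with CoCl2, and none rose and 1 fell with OD. This is 38.5% called with CoCl2 and 7.69% with OD, below the 43.2% and 13.3% of all genes. *TFEB*, *TFE3* and *MITF* encode the factors that drive many autophagy and lysosome genes. In their list of 5 genes only *MITF* was called higher with CoCl2 (log2 fold change 1.23, adjusted p = 3.63e-16). This is 20% of the list, near the 19.9% of all genes. None was called with OD, where 9.09% of all genes were called higher. With CoCl2 the log2 fold change of *TFE3* was 0.89 (adjusted p = 1.71e-23) and that of *TFEB* -0.72 (adjusted p = 8.25e-05), both short of the fold threshold. *ULK2*, the paralog of *ULK1*, was lower with CoCl2 than with OD (log2 difference -1.63, adjusted p = 9.64e-14).

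**Figure D5:**
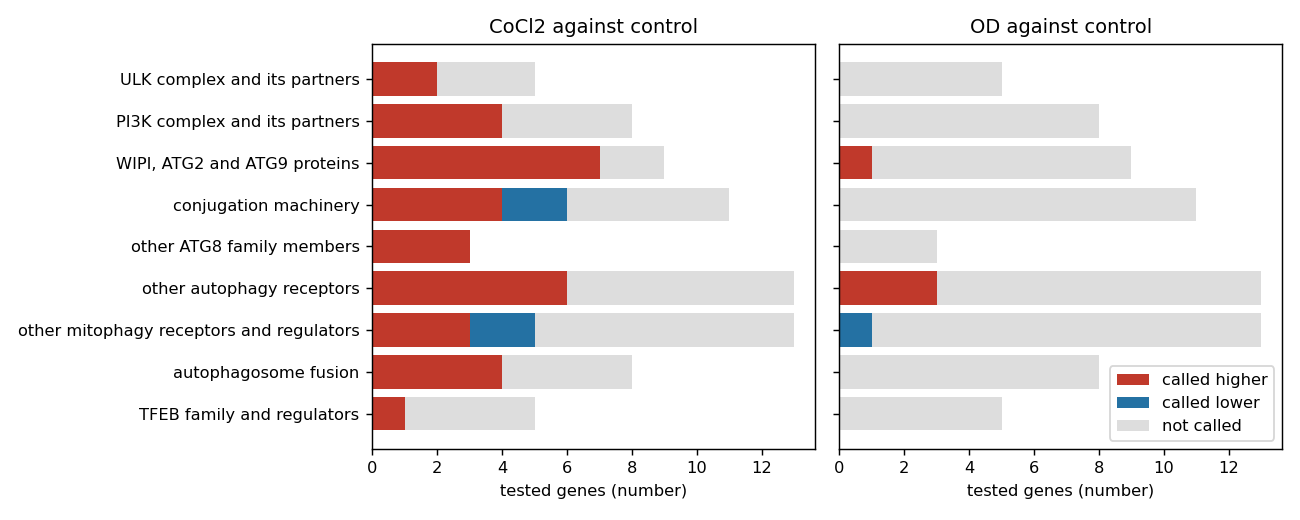
Number of tested genes called higher (red), called lower (blue) or not called (grey) in 9 autophagy lists, for CoCl2 (left) and OD (right) against control. With CoCl2 34 of 75 genes are called higher and 4 lower, with OD 4 and 1. The list of WIPI, ATG2 and ATG9 proteins includes *VMP1* and *TMEM41B*.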

How the data were processed

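Per the labels and the paper's methods, the authors extracted RNA with on-column DNase treatment, made stranded poly(A)-selected libraries and sequenced single-end reads. They checked reads with FastQC 0.11.9, trimmed adapters with cutadapt 2.10, mapped on GRCh38.p13 with STAR 2.7.5b (versions as in the submitters' processing notes) and counted on GENCODE genes. The deposited values are raw counts per gene symbol without normalization. The counting tool, its strand setting and its treatment of reads that fit several genes are not given in the sources used here. All 9 columns matched a sample title, and 0 were left unused.

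TMM factors, the expression filter and the fit were those of edgeR 4.0.16 (R 4.3.3), with a robust quasi-likelihood model over the 9 libraries with 1 mean per condition. P-values were adjusted over all 15944 tested genes by the Benjamini-Hochberg procedure. A call needed both an adjusted p below 0.05 and a change of over 1 on the log2 scale, as in the paper. Intervals of 95% are 1.96 standard errors. At this depth the standard errors of the 10 genes were 0.0412 to 0.109 on the log2 scale, and no molecular identifiers removed PCR copies. Replicates differed beyond sampling noise in every pair (chi-square per degree of freedom 1.82 to 3.32). Exon lengths, coordinates and overlaps were taken by symbol from GENCODE release 44 (GRCh38). The fit was also run on simulated data in which few genes were changed, equally up and down. That setting lacks the shift in RNA composition seen with CoCl2, so it cannot test the scaling there.

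The 10 genes, the pathway lists and the motifs were chosen with earlier results of these data known. Beside the 10 genes, the text names the 5 largest rises and falls among called genes of the pathway lists in each comparison, and the 3 most similar profiles for the genes with the largest changes. *MITF*, the TFEB family, *VIL1*, *COL1A1*, *PECAM1*, *PTPRC*, *VMP1*, *TMEM41B*, *GABARAPL2*, *MAP1LC3A* and *MAP1LC3C* were named outside this rule, some after their values were seen. The alternatives were DESeq2 1.42.0 on 9 or 6 libraries, edgeR on 6 libraries, RLE, upper-quartile or no factors, no count filter or at least 10 counts in every library, a replicate block, each library left out, the adjusted p alone and, for levels, the longest transcript. Adding the counts of near-identical copies was chosen after seeing the data.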

Additional observations from a re-analysis of the deposited data

How the results depend on the processing

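Of 546 recomputed log2 fold changes of the 10 genes over all comparisons and alternatives, 535 kept their direction and stayed called or not called, 3 lost the call and 8 changed sign. Of the 535, the differences of *PINK1* and *NBR1* between CoCl2 and OD, not called in either case, passed from an adjusted p below 0.05 to 0.703 and 0.0528 with library size alone. *WIPI1* with CoCl2, whose value is near 0, was -0.077 with upper-quartile factors, -0.041 without a count filter, -0.48 with library size alone, -0.0056 with at least 10 counts in every library, and -0.084 to 0.11 with each library left out. *FUNDC1* between CoCl2 and OD was -0.19 with library size alone. The lost calls were *NBR1* with CoCl2 (0.83, library size alone) and *PINK1* with OD (0.90 and 0.998, with OD replicate 1 or control replicate 3 left out), and the number of the 10 genes called higher was 7 or 8 with CoCl2 and 5 or 6 with OD over the alternatives other than the adjusted p alone.

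With the adjusted p alone, 1 of the 10 genes was lower with CoCl2 and 1 with OD, and the direct comparison of the treatments had 8 higher and 2 lower. Of the 75 tested pathway genes, 54 were then higher and 14 lower with CoCl2, 44 and 10 with OD, and 51 and 19 between the treatments. Over all genes 13260, 10466 and 13311 differed in either direction, which is 83.2%, 65.6% and 83.5% of those tested. By direction these were 6441 higher and 6819 lower with CoCl2, 5156 and 5310 with OD, and 6416 and 6895 between the treatments. With library size alone the pathway counts were 13 higher and 10 lower with CoCl2, 7 higher with OD, and 7 higher and 12 lower between the treatments, where only the scaling differed. With upper-quartile factors 7 were higher with OD. With at least 10 counts in every library, which left 12583 genes to test, 1134 genes were called with OD in place of 2113. Library size alone lowered the share of higher calls over all genes from 46.0% to 23.9% with CoCl2 and from 42.4% to 18.3% between the treatments.

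Samples with the same replicate number deviated together from their group means weakly at most (correlations from -0.0049 to 0.038). Those with different numbers had correlations from -0.047 to 0.025. Nothing in the labels says that a number marks a shared batch. With the replicate block, 8 of the 10 genes were called higher with CoCl2 and 6 with OD, as without it, and 6901 genes in all were called with CoCl2. By longest transcript, 12 of 30 places in the order by level per kilobase changed.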
